A study of Urocitellus parryii with 3 samples.

Results

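The let-7 family with miR-98 was followed through 3 stages of the yearly cycle of Urocitellus parryii, the arctic ground squirrel, in liver. Its members were the 9 array entries mmu-let-7a, mmu-let-7b, mmu-let-7c, mmu-let-7d, mmu-let-7e, mmu-let-7f, mmu-let-7g, mmu-let-7i and mmu-miR-98 (written without the mouse prefix from here on), out of 577 miRNA entries in all, of which 567 were mouse miRNAs. They were taken by name, with earlier results of these data known. The stages were early arousal (EA), when a hibernating animal rewarms, late torpor (LT, spelled "late topor" in the labels), when it is cold and metabolically depressed, and post-reproduction (PR), outside the hibernation season. The labels name no genotype, treatment, age or number of animals. Liver RNA of the animals of a stage was mixed into 1 pool. From each pool, Cy3-labelled RNA went onto 1 Agilent array with probes for mouse miRNAs. With 1 pool and 1 array per stage there was no spread between animals, no test of a stage difference and no replicate check, and stage and array cannot be told apart. The number of arrays limits the precision. Probe sequences were not analysed here, so neither the match of the mouse probes to the squirrel's miRNAs nor signal shared between similar members was measured.

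The let-7 miRNAs carry the same seed, the stretch near the 5′ end that pairs with target messages, and differ from each other by few bases elsewhere. Their precursors are bound by LIN28, which blocks their maturation in embryonic cells. In differentiated tissue such as adult liver they accumulate and repress growth-promoting messages, among them those of HMGA2, MYC and RAS proteins, and in mice they act on insulin signalling and glucose metabolism. In a torpid hibernator transcription and translation are strongly reduced, and they resume during arousal.

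All 9 members were detected on all 3 arrays. Each had 2 probes of 10 spots, and of its 180 spots per array the family kept 174 in EA, 173 in LT and 172 in PR after spots marked as outliers were left out. Each kept spot was well above background and 0 were saturated. The SD of log2 intensity among the spots of a probe was 0.070 at the median (0.029 to 0.15 over 54 combinations of probe and array), so the standard error (SE) of a member's difference, which covers spot spread only, was about 0.022 to 0.024 at the median. As a check of the tissue, all 4 hepatocyte markers (miR-122, miR-192, miR-194 and miR-148a) were measured, with a summed intensity of 36256 in EA, 41366 in LT and 37484 in PR.

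By the positions that the array design gives for the probe targets in the mouse genome (mm9), 5 of the 9 members lie in 2 groups. let-7d, let-7f and let-7a lie on chromosome 13, at 48631447 to 48631465, 48633258 to 48633278 and 48633608 to 48633627. let-7c and let-7b lie on chromosome 15, at 85537049 to 85537067 and 85537758 to 85537776. let-7e lies on chromosome 17, at 17967333 to 17967351, between the targets of miR-99b and miR-125a. let-7g is on chromosome 9 (106081178 to 106081198), let-7i on chromosome 10 (122422754 to 122422774) and miR-98 on chromosome X (148347772 to 148347793). The orientation in the design is not used here as the strand of a miRNA gene. The design gives 1 position per entry, although the mature let-7a, let-7c and let-7f are each made from more than 1 gene copy in mammals, so a value cannot be assigned to a copy.

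The deposited intensities fell into a common order. Averaged over its probes, each of the 9 members was brightest in PR, dimmer in LT and dimmest in EA before any scaling of the arrays, although 3 of the 18 probes departed from that order. The 75th percentile of the probes detected on all 3 arrays, let-7 included, was 398 intensity units in PR, 350.4 in EA and 349 in LT. The values by probe follow, each the geometric mean over the spots, and intensities are compared between stages for the same probe, not between probes.

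Among the members of the chromosome 13 group, the longer-target probe of let-7a had 3960.0 intensity units in EA, 4569 in LT and 4830.4 in PR. Its other probe had 1886, 1988 and 2171. Both were lowest in EA and highest in PR, with steps of modest size. The longer-target probe of let-7f read 3879, 4418 and 4822 in EA, LT and PR, and the other read 902, 859 and 999. The latter was dimmest in LT, not in EA. For let-7d, the probes had 221, 245 and 314 units and 55.1, 61.6 and 94.2 units. In this member the PR array stood well apart and EA and LT lay close together.

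Of the chromosome 15 group, let-7b had 1188 units in EA, 1514 in LT and 1907 in PR on its longer-target probe and 560.3, 603 and 909 on the other. let-7c had 718, 830.0 and 1083 units, and 189, 220.4 and 305. Both probes of both members were highest in PR and lowest in EA. let-7e read 104, 111 and 137 units, and 44.9, 44.0 and 59.2 on its dimmer probe, where EA and LT were nearly level.

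For let-7g the values were 1555, 1804 and 1858 in EA, LT and PR, and 597, 629.9 and 717 on the shorter-target probe. let-7i had 610.5, 792 and 773 units on its longer-target probe, which was brightest in LT, and 294, 344 and 392 on the other. miR-98 had 67.8, 80.2 and 87.0 units, and 47.1, 58.8 and 63.9. On the longer-target probe of these 3 members the step in intensity from LT to EA was larger than that from PR to LT. The same held for the longer-target probes of let-7a and let-7f.

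**Figure D1:**
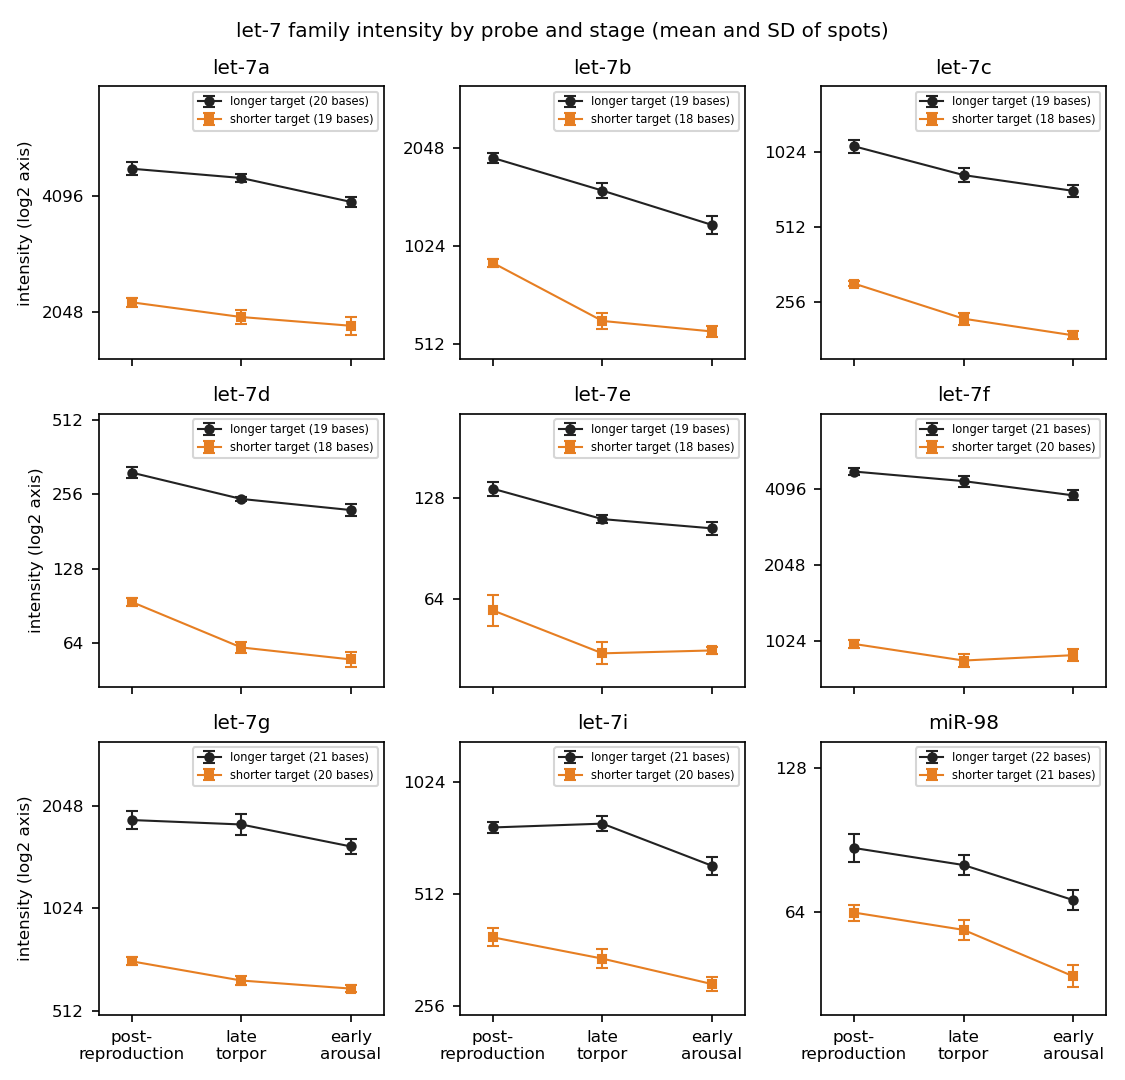
Intensity (log2 axis) of the 2 probes of each of the 9 members in post-reproduction, late torpor and early arousal, 1 array each. Points are means over the 7 to 10 kept spots of a probe and bars 1 SD of the log2 spots. The probes of let-7b, let-7c and let-7d fall most between the PR array and the EA array, for example from 1907 to 1188 units for let-7b.

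To compare arrays, each was scaled on the 75th percentile given above, and a difference is a difference of scaled log2 values, averaged over the probes of a member. Whole-array scaling decides where 0 lies. Without the 18 let-7 probes the percentile was 277 in EA, 302 in LT and 260 in PR, so that PR went from the highest to the lowest of the 3. The differences of members from each other, and from the median of the 135 measured mouse miRNAs (those with a probe detected on all 3 arrays), do not move when a whole array is shifted and are given beside the scaled values of the family and of its lowest and highest members.

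Early arousal against post-reproduction gave the largest differences. As scaled, each of the 9 members was lower in EA by more than 2 SE and 0 were higher, while 39.3% of all measured miRNAs were lower and 48.9% higher by that rule. That count of members depends on the scaling. Scaled on the median of detected probes, let-7a (-0.018 ± 0.018), let-7f (-0.0046 ± 0.020) and let-7g (-0.035 ± 0.020) lay within 2 SE of 0. The other settings that only shift an array moved these members further below 0. As first scaled, the family's median difference was -0.21, against 0.062 over all 135 measured miRNAs, of which 60 were lower. The 9 members all lay below that overall median, and the family's median lay 0.27 under it (a relative difference of -0.27, and -0.29 to -0.17 under 16 alternative settings). None passed the rule of size, which asks for a log2 difference of at least 1 (2-fold), more than 2 SE and 1 sign in all probes, and which 3.7% of measured miRNAs passed.

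The members split in size. let-7b, at -0.51 ± 0.02 (log2 difference ± SE from spots), was 1.42-fold lower in EA (95% interval from spots 1.38 to 1.46). let-7c was at -0.46 ± 0.02 and let-7d at -0.45 ± 0.02, both 1.37-fold lower. Of the measured miRNAs, 10 lay below let-7b, 14 below let-7c and 15 below let-7d. Relative to the median of all measured miRNAs the 3 stood at -0.57, -0.52 and -0.52. After these 3 came a gap. miR-98, let-7e and let-7i had -0.22, -0.21 and -0.19, and let-7g, let-7a and let-7f had -0.076, -0.060 and -0.046. Relative to the median of all measured miRNAs, let-7f, the highest member, had -0.11.

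let-7b, let-7c and let-7d were the 3 lowest members in this comparison under each of the 16 alternative settings. Settings that only shift an array cannot change this order, and the longer-target and shorter-target settings repeated the brightest-probe and dimmest-probe ones. The order was thus open to change only under quantile normalization, normexp, the handling of spots, the total gene signal and the choice of probe. The sizes of the differences held less well: with normexp background correction let-7d had -0.27, let-7e -0.081 and miR-98 -0.067. let-7f was the exception to a common sign, since its dimmer probe had 0.037 and its brighter one -0.13, and it was above 0 when members were read from their shorter-target or their dimmest probe alone. Under the other 14 alternatives all 9 members were below 0. Of the 36 pairs of members, 27 differed from each other by more than 2 SE, and the widest pair, let-7b and let-7f, differed by 0.46 ± 0.03. The same count was not made for pairs of all measured miRNAs. Probes of the same member could also differ by more than 2 SE, as in let-7d (0.27 ± 0.05). A lower level in bulk liver RNA can come from fewer cells that hold a miRNA or from less of it per cell, which cannot be told apart here.

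Late torpor against post-reproduction divided the family. let-7d (-0.29 ± 0.02), let-7b (-0.27 ± 0.02), let-7c (-0.24 ± 0.02) and let-7e (-0.17 ± 0.03) were below 0 as scaled. let-7f (0.018 ± 0.021), miR-98 (0.072 ± 0.024), let-7g (0.075 ± 0.023), let-7a (0.087 ± 0.015) and let-7i (0.11 ± 0.02) were above 0. By the 2 SE rule 4 members were lower and 4 higher, with 25.2% and 57.8% of measured miRNAs as background. The signs of the upper 5 depend on the processing: all 9 members were lower with the arrays unscaled, with both scalings on all probes, without the family in the percentile, with strict detection, with the total gene signal and with centring on the measured miRNAs. With the median scaling let-7i alone stayed above 0, after quantile normalization let-7g alone, and let-7f fell below 0 with normexp and with the shorter-target or dimmest probe. let-7b, let-7c, let-7d and let-7e were lower under all 16 alternative settings.

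The gap between the 4 and the 5 does not move with an array shift. The 4 lay between -0.29 and -0.17 and the 5 between 0.018 and 0.11. The members were divided on these same values, so the 4 and the 5 could not overlap here. The 4 also lay below the 5 under each of the 16 alternatives, though those that only shift an array could not change this. The gap was narrowest with normexp, where let-7d had -0.17, let-7e, the highest of the 4, had -0.046 and let-7f, the lowest of the 5, had -0.0020. Relative to the median of all measured miRNAs let-7d, let-7b, let-7c and let-7e had -0.42, -0.40, -0.37 and -0.31, and the other 5 ran from -0.11 to -0.019. let-7d and let-7i, the widest pair, differed by 0.40 ± 0.03, and 24 of the 36 pairs differed by more than 2 SE. Here too no count was made for pairs of all measured miRNAs, and probes of the same member could pass 2 SE, as in let-7b (0.26 ± 0.04). The median of the family was 0.018, against 0.13 for all measured miRNAs, so its relative difference was -0.11 (-0.15 to -0.11 under the alternatives), and again the 9 members were below the overall median. None passed the rule of size, with a background of 2.22%. The division into 4 and 5 was noticed after the values were seen.

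Early arousal against late torpor, both within the hibernation season, moved the family in another order. let-7i (-0.31 ± 0.02) and miR-98 (-0.29 ± 0.02) were lowest, each about 1.2-fold lower in EA (let-7i 1.24-fold, 95% interval from spots 1.20 to 1.28). let-7b and let-7c followed at -0.23 and -0.22, then let-7d, let-7g and let-7a at -0.16, -0.15 and -0.15. let-7f had -0.064 ± 0.024 and let-7e -0.037 ± 0.022, and their probes took opposite signs. Relative to the median of all measured miRNAs let-7i had -0.21, miR-98 -0.19, let-7f 0.030 and let-7e 0.057. With normexp miR-98 had -0.16 and let-7d -0.10. By the 2 SE rule 8 members were lower and 0 higher, but 55.6% of measured miRNAs were lower too. The family's median of -0.16 lay close to the -0.094 of all measured miRNAs, a relative difference of -0.067, and 7 of 9 members lay below that overall median. None passed the rule of size, against 2.96% of measured miRNAs.

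The sign depends on the scaling here too: 5 members were higher in EA with the all-probe scaling on unsubstituted intensities, 4 with the median scaling, 1 with the total gene signal, and 2 each without the family in the percentile, after quantile normalization, with centring on the measured miRNAs, and with the shorter-target or dimmest probe. The widest pair, let-7e and let-7i, differed by 0.27 ± 0.03. These 3 comparisons use the same 3 arrays, so none of them is independent of the others: the PR array enters both differences in which let-7b, let-7c and let-7d stood lowest.

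**Figure D2:**
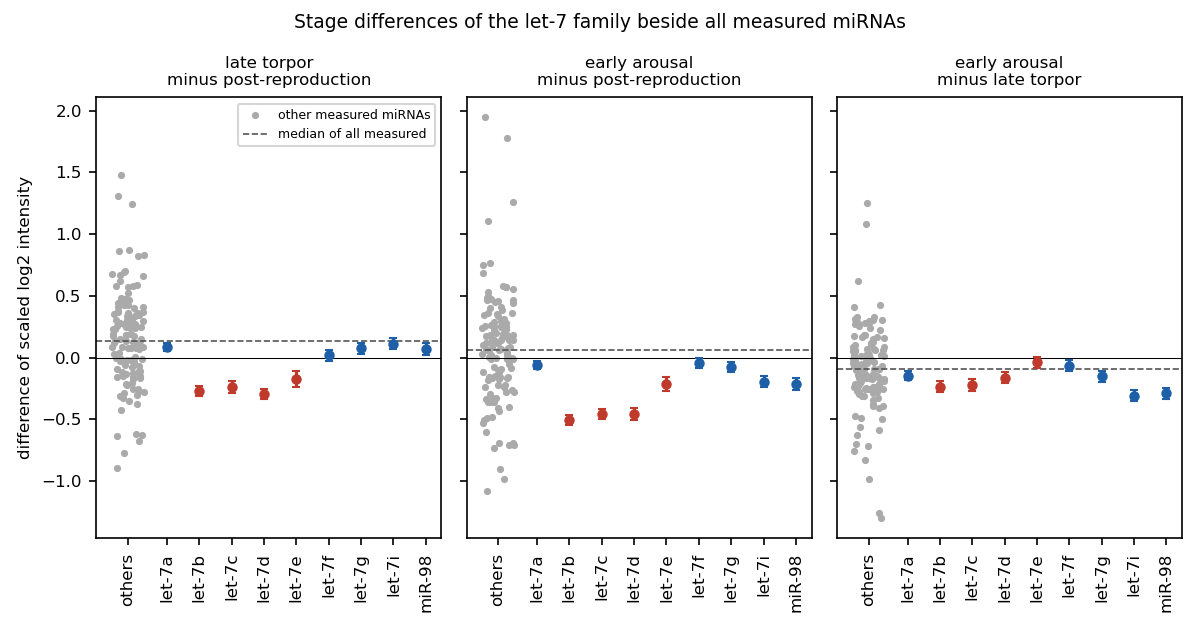
Difference of scaled log2 intensity of each member with its 95% interval from spots, beside the other measured mouse miRNAs (grey) and the median of all 135 (dashed line), in the 3 comparisons. let-7b, let-7c, let-7d and let-7e are red and the other members blue, a division made on their late torpor minus post-reproduction values. The red members lie below the blue ones in late torpor minus post-reproduction, and red let-7b, let-7c and let-7d lie lowest in early arousal minus post-reproduction.

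With the 75th percentile scaling, EA was the lowest stage for all 9 members. In let-7b, let-7c, let-7d and let-7e the order was PR, LT, EA from high to low, and EA and LT of let-7e did not differ beyond 2 SE. In let-7a, let-7f, let-7g, let-7i and miR-98 the order was LT, PR, EA, and LT and PR of let-7f did not differ beyond 2 SE. Each other neighbouring pair of stages differed by more than 2 SE from spots, an error that holds no spread between animals.

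Members that lie together on a chromosome did not all have like values. Within the chromosome 13 group, let-7a exceeded let-7d by 0.38 ± 0.02 in late torpor minus post-reproduction and by 0.39 ± 0.03 in early arousal minus post-reproduction. let-7a and let-7f lay closer, 0.069 ± 0.026 (past 2 SE) and -0.014 ± 0.027 apart in the same comparisons. In early arousal minus late torpor let-7a and let-7d were 0.014 ± 0.030 apart. There let-7a lay below let-7f, at -0.082 ± 0.030, past 2 SE. let-7d thus stood apart from let-7a in both differences from PR, and the pair lay within 2 SE of each other between the hibernation stages. In the chromosome 15 group, let-7b and let-7c stayed within 0.049 ± 0.030 of each other in all 3 comparisons, within 2 SE each time.

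The miRNAs encoded beside let-7 genes gave other values. In mammals let-7e is transcribed with miR-99b and miR-125a, and other gene copies of let-7c and let-7a lie beside miR-99a, miR-100 and miR-125b; the miR-125 family is the mammalian form of lin-4, and miR-99 and miR-100 form a family of their own. In late torpor minus post-reproduction miR-99b had 0.28 ± 0.11 and miR-125a-5p 0.24 ± 0.07, so let-7e lay below them by 0.45 ± 0.11 and 0.42 ± 0.08. Their targets lie 153 and 434 bases from that of let-7e. Each of these rested on 1 detected probe of 2 near the detection limit, with 11.7 units in EA, 13.1 in LT and 12.3 in PR for miR-99b and 22.6, 26.7 and 25.8 for miR-125a-5p.

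The brighter neighbours showed the same side. miR-99a had 0.18 ± 0.02, miR-125b-5p 0.23 ± 0.02 and miR-100 0.42 ± 0.02 in late torpor minus post-reproduction. let-7c lay 0.42 ± 0.03 below miR-99a and 0.47 ± 0.03 below miR-125b-5p (differences of -0.42 and -0.47), and let-7a lay 0.34 ± 0.03 below miR-100 (-0.34). In early arousal minus post-reproduction these gaps were -0.36 ± 0.03, -0.71 ± 0.03 and -0.32 ± 0.03. The probes of miR-99a took opposite signs in that comparison, with 0.063 on the longer target and -0.25 on the shorter. In early arousal minus late torpor miR-99a had -0.27, miR-100 -0.16 and miR-125b-5p 0.023. There let-7c minus miR-99a was 0.052 ± 0.033 and let-7a minus miR-100 0.017 ± 0.029, both within 2 SE, while let-7c minus miR-125b-5p was -0.24 ± 0.03. All 5 neighbours thus lay above the let-7 member they are encoded beside in both differences from PR, but so did most measured miRNAs: of the 135, 19 lay below let-7c in late torpor and 14 in early arousal, 23 and 35 lay below let-7e, and 61 and 52 below let-7a. None of the 5 passed the rule of size.

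The star strands, the passenger arms of the let-7 hairpins that are mostly degraded, gave no measurable level. The array carried 7 of them (let-7b*, let-7c-1*, let-7c-2*, let-7d*, let-7f*, let-7g* and let-7i*) with 28 probes, of which 0 were detected on any array. Their highest probe mean was 3.36 intensity units in EA, 6.42 in LT and 5.72 in PR. Of their kept spots, 0 of 140 in EA, 3 of 140 in LT and 1 of 139 in PR were well above background. Whether the passenger arms moved with the mature strands was therefore not detectable.

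The probes of a member did not always give the same size. The targets of a member's probes share one end and differ by 1 base in length at the other, and the probe with the shorter target was the dimmer one in all 9 members on all 3 arrays. In late torpor minus post-reproduction the shorter-target probe gave the lower difference in 9 of 9 members, by 0.13 at the median. Among the other measured mouse miRNAs with 2 probes of unequal target length it did so in 51 of 88, or 58.0%, with a median gap of 0.020. The gap was widest in let-7b, with -0.40 on the shorter and -0.14 on the longer target (0.26 ± 0.04), in let-7d with -0.42 and -0.16 (0.26 ± 0.04), and in let-7i with 0.00050 and 0.22 (0.22 ± 0.05).

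In early arousal minus post-reproduction the shorter-target probe was lower in 7 of 9 members, with a median gap of 0.016, against 34 of 88 other miRNAs. let-7d had the widest gap there (0.27 ± 0.05), and both of its probes stayed below 0. In early arousal minus late torpor it was lower in 3 of 9 members and 29 of 88 others. The median gap was -0.13 in the family and -0.029 in the others, and let-7f (-0.26 ± 0.05) and let-7b (-0.24 ± 0.05) stood out. Gaps of up to 0.27 between 2 probes of the same miRNA on the same arrays stand beside stage differences of 0.018 to 0.51 in size.

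**Figure D3:**
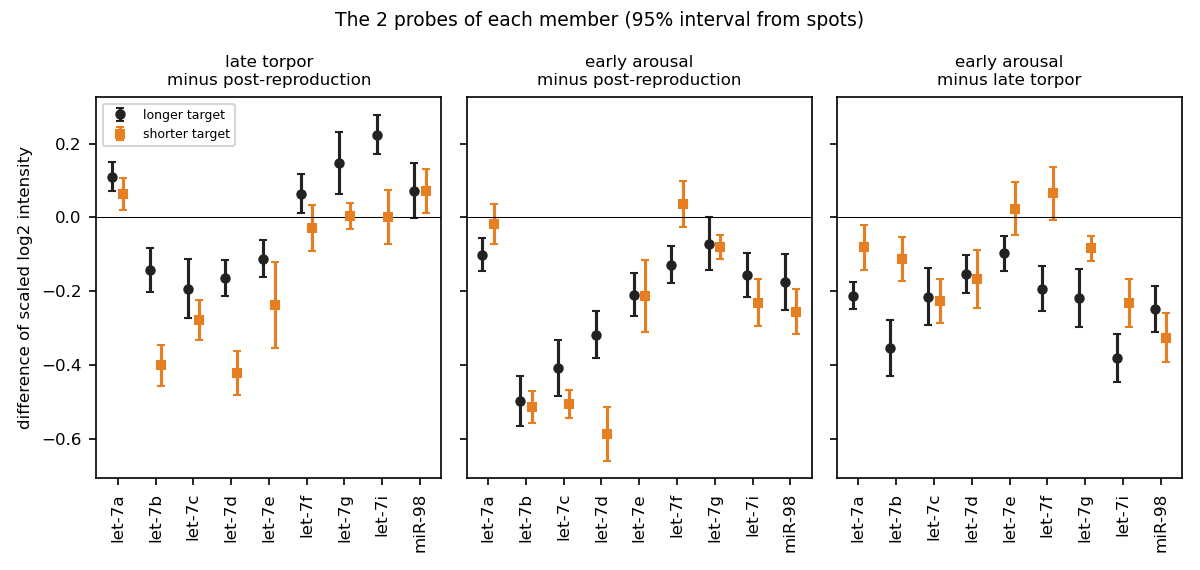
Difference of scaled log2 intensity of the longer-target probe (black) and the shorter-target probe (orange) of each member, with 95% intervals from spots, in the 3 comparisons. In late torpor minus post-reproduction the orange point is the lower one in 9 of 9 members; in early arousal minus late torpor it is the lower one in 3 of 9.

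Target length also went with the division of the family. let-7b, let-7c, let-7d and let-7e are the members whose probes both have targets of 18 or 19 bases, and the other 5 have a probe with a target of at least 20 bases. In late torpor minus post-reproduction the median over the 9 let-7 probes with targets of 18 or 19 bases was -0.19, and over the 9 with 20 to 22 bases it was 0.071. Probes of other measured miRNAs had medians of 0.21 (66 probes, quartiles -0.10 and 0.41) and 0.25 (55 probes, quartiles 0.00023 and 0.44) at the same lengths. In early arousal minus post-reproduction the let-7 medians were -0.41 and -0.13 and those of the others 0.068 and 0.11. This link to length was noticed after the values were seen. Of the other 5, only let-7a had a probe with a target of 19 bases, its shorter-target one. That probe had 0.063 in late torpor and -0.018 in early arousal against PR. The 19-base probes of let-7b, let-7c, let-7d and let-7e, their longer-target ones, had -0.19 to -0.11 and -0.50 to -0.21. The part of target length in the division was not tested.

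**Figure D4:**
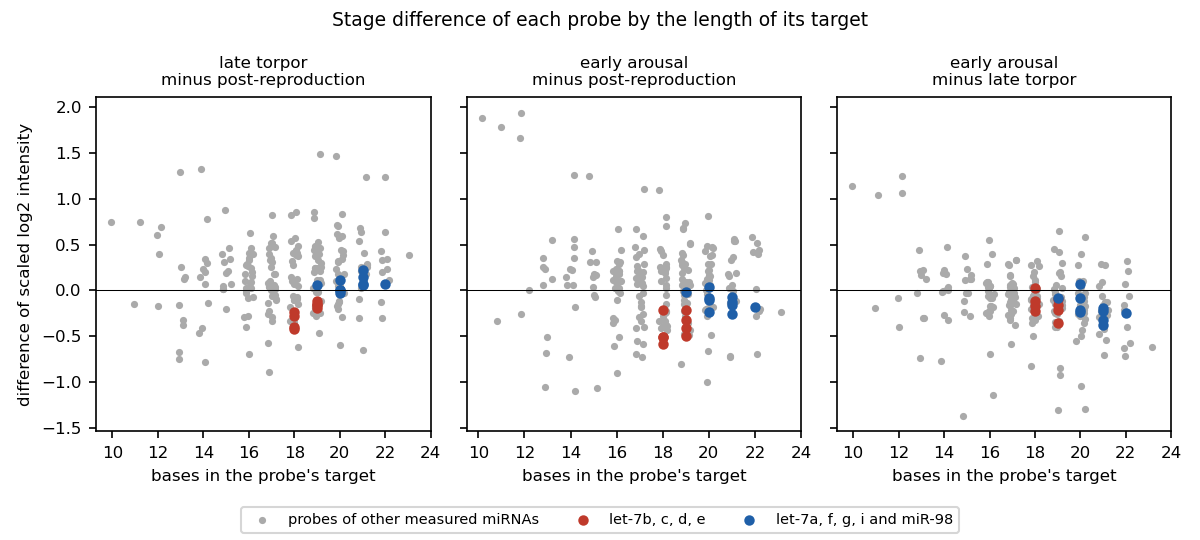
Difference of scaled log2 intensity of each probe against the number of bases in its target, for probes of other measured mouse miRNAs (grey, jittered sideways), for let-7b, let-7c, let-7d and let-7e (red) and for the other members (blue). Within the family the 18-base probes lie lowest in late torpor minus post-reproduction, from -0.42 to -0.24, while the grey points at these lengths spread on both sides of 0.

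Markers of other cell types moved between the arrays as well. The biliary epithelium list had 2 of 3 members measured (miR-200a and miR-200b, not miR-200c), and its summed intensity was 65.0 in EA, 56.0 in LT and 111 in PR. It stood on the same side as let-7b, let-7c and let-7d in both differences from PR, with medians of -0.75 for LT and -0.53 for EA, and on the other side between EA and LT (0.22). The red blood cell list (3 of 3 measured) summed to 1873 in EA, 3085 in LT and 1481 in PR. Its medians against PR were 1.31 for LT and 0.53 for EA, on the other side from let-7b, let-7c and let-7d. The leukocyte list (5 of 6, without miR-155) summed to 404 in EA, 568 in LT and 480 in PR. Its medians were 0.41 in late torpor and -0.22 in early arousal, both against PR, but its members did not move together. In late torpor they ran from -0.27 to 0.67, with 1 of 5 lower, and in early arousal from -0.49 to 0.19, with 4 of 5 lower.

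The endothelial list (2 of 2) summed to 937 in EA, 994 in LT and 893 in PR, with medians against PR of 0.31 for LT and 0.31 for EA. The hepatocyte list had medians against PR of 0.27 for LT and 0.11 for EA, with 1 of 4 lower in EA. The list of stellate and smooth muscle cells (4 of 5, without miR-199a-3p, which had no entry under that name) summed to 153, 167 and 190.5 units in EA, LT and PR, and its scaled medians were 0.029 in late torpor and 0.024 in early arousal against PR, with 2 of 4 lower in each. Its members did not move together. They ran from -0.16 to 0.079 in late torpor and from -0.36 (miR-199a-5p) to 0.062 in early arousal. let-7 members are made in many cell types. The part that any of these cell types had in the let-7 values was not tested.

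The 5 measured miRNAs outside the family with the pattern nearest to its median over the 3 arrays were miR-140, miR-199b, miR-24, miR-199b* and miR-29c*. Likeness was the Euclidean distance between log2 values centred on each miRNA's own mean, and it ranged from 0.069 for miR-140 to 0.090 for miR-29c*. The members' own distances from their median ran from 0.092 for miR-98 to 0.23 for let-7b, so these 5 lay closer to the family's median than any member did. miR-24, the brightest of them, had 384 intensity units in EA, 408 in LT and 487 in PR, with -0.067 in late torpor and -0.16 in early arousal, both against PR. miR-199b had -0.025 and -0.28, and miR-140 -0.0059 and -0.15. Such a distance over 3 arrays is a description only.

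**Figure D5:**
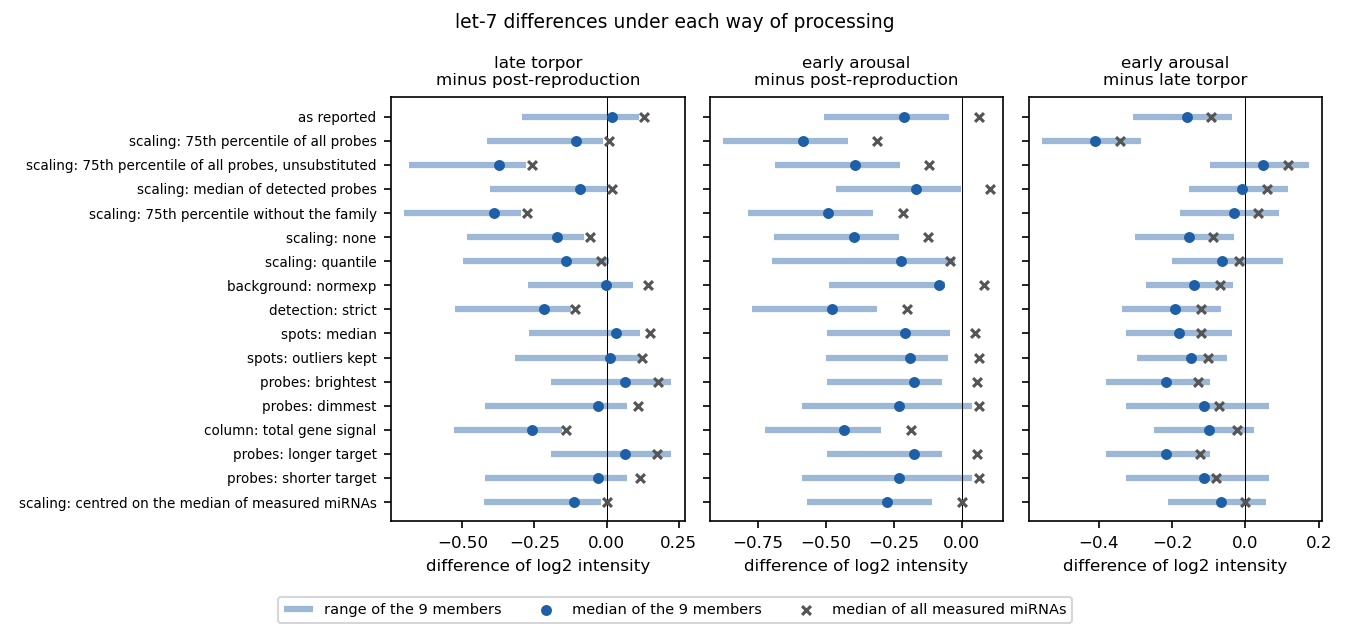
Median (blue) and range (bar) of the 9 members' log2 differences, and the median of all measured miRNAs (cross), as reported and under 16 other ways of processing, in the 3 comparisons. The family's median crosses 0 with the setting in late torpor minus post-reproduction and in early arousal minus late torpor. It stays below 0, between -0.58 and -0.084, in early arousal minus post-reproduction. It lies below the cross in each setting shown, a side that settings shifting a whole array cannot change. The -0.58 comes from the 75th percentile of all probes, which in EA and LT is the value put in for spots at or below 0; the next lowest median is -0.49.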

How the data were processed

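Each of 3 Cy3-labelled RNA pools (EA, LT, PR) was read on 1 array. The software was Agilent Feature Extraction, version 9.5.3.1, as the submitters' processing notes name it. Per the file headers, the deposited intensity is the spot signal after subtraction of a fitted spatial trend, on a linear scale, with no normalization between arrays. The authors' series table equalled this intensity at all 11540 miRNA spots of each array (column medians 1.05, 1.15 and 1.13, uncentred).

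Control spots and spots marked as outliers were left out, as were 0 columns of other samples. Spots at or below 0 were set to the lowest intensity that counted as well above background on that array, which touched no let-7 spot. Log2 values were averaged over spots, then over the probes detected (over 50% of kept spots well above background) on all 3 arrays (250 probes), and each array was scaled on the 75th percentile of those probes. SEs come from spots. There were 13 alternatives planned and 3 chosen after seeing the data (longer target, shorter target, centring on the measured miRNAs), run with Python 3.11.15 and, for normexp (offset 50), limma 3.58.1. The steps were run on simulated spots with planted differences. Errors were taken relative to the unchanged miRNAs, so the place of 0 set by the array scaling was not tested. Named miRNAs were the members, miRNAs encoded beside them, their star strands and the 5 nearest patterns. Members and lists were chosen with earlier results of these data known.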

Additional observations from a re-analysis of the deposited data

How the results depend on the processing

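Each stage had 1 array, so leaving out a replicate was not possible. No paired analysis was possible because the groups share no replicates. All values are log2 differences, and the median is that of the 9 members. Over 16 alternatives the median relative to all measured miRNAs kept its sign in each comparison, while the scaled values moved with the array scaling. A setting that only shifts an array cannot change this relative median, so its sign was open to change only under the other settings. The 75th percentile of all probes was, in EA and LT, the value put in for spots at or below 0, so it is no measured intensity there. With it the medians were -0.11 (LT minus PR), -0.58 (EA minus PR) and -0.41 (EA minus LT), and in LT minus PR let-7a, let-7g, let-7i and miR-98 reversed to -0.037, -0.049, -0.012 and -0.053. On unsubstituted intensities the medians were -0.37, -0.39 and 0.049, the last reversed. The same 4 members had -0.30, -0.32, -0.28 and -0.32 in LT minus PR, and let-7a, let-7d, let-7f and let-7g had 0.063, 0.049, 0.15 and 0.058 in EA minus LT. With the median of detected probes the medians were -0.093 (LT minus PR) and -0.0085 (EA minus LT). let-7a, let-7g and miR-98 reversed to -0.024, -0.035 and -0.039 in LT minus PR, and let-7a, let-7f and let-7g to 0.0057, 0.088 and 0.00056 in EA minus LT. Without the family in the percentile the medians were -0.39, -0.49 and -0.032. let-7a, let-7g, let-7i and miR-98 had -0.32, -0.33, -0.30 and -0.34 in LT minus PR, and let-7f 0.065 in EA minus LT. Unscaled, the medians were -0.17 (LT minus PR) and -0.40 (EA minus PR), and those 4 members had -0.10, -0.12, -0.078 and -0.12. After quantile normalization the medians were -0.14 (LT minus PR) and -0.064 (EA minus LT), the spread between the highest and lowest member was 0.51 (LT minus PR) and 0.67 (EA minus PR), let-7a, let-7i and miR-98 reversed to -0.14, -0.040 and -0.048 in LT minus PR, and let-7a to 0.083 in EA minus LT. With normexp the EA minus PR median was -0.084, and let-7d, let-7e and miR-98 moved by over 1.5 times as given with each comparison. With strict detection (fewer probes in the percentile) the medians were -0.22 (LT minus PR) and -0.48 (EA minus PR), and let-7a, let-7g, let-7i and miR-98 had -0.15, -0.16, -0.12 and -0.16. With the total gene signal the medians were -0.26, -0.43 and -0.099, and the 4 members had -0.21, -0.20, -0.16 and -0.24. From the brightest probe, which gave the values of the longer-target probe (added after seeing the data), the medians were 0.064 (LT minus PR) and -0.22 (EA minus LT). From the dimmest, which gave those of the shorter-target probe (also added), they were -0.028 and -0.11, the spreads were 0.49, 0.62 and 0.39, and let-7f reversed to 0.037 (EA minus PR) and 0.065 (EA minus LT). Centred on the measured miRNAs (added), the medians were -0.11, -0.27 and -0.067, let-7a, let-7g, let-7i and miR-98 had -0.045, -0.056, -0.019 and -0.060 in LT minus PR, and let-7f 0.030 in EA minus LT. For settings that only shift an array, that shift is the cause by construction. The offset of 50 added in normexp shrinks the unscaled log2 differences of dim probes by construction, and its share in the normexp changes was not tested. For quantile, the total gene signal and the choice of probe the cause was not tested. All kept spots of the members were well above background, but values of the dimmer let-7d, let-7e and miR-98 moved with normexp and its offset. The star strands were below detection.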
